A study of Homo sapiens with 12 samples.

Results

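The genes described here encode the translation initiation factors (symbols EIF1 to EIF6) and translation elongation factors (symbols EEF) of HepG2, a human liver cancer cell line. They were chosen by symbol: protein-coding genes whose symbol begins with EIF and a digit from 1 to 6 or with EEF, without the EIF2AK kinases and without pseudogenes, and with at least 10 counts in 3 or more libraries. Of 62475 gene identifiers in the count table, 68 fitted the symbol rule and 61 also passed the count minimum. All 61 were among the 14435 genes tested. The symbol rule also brings in the eEF2 kinase, the methyltransferases named for eEF1A and eEF2, and EIF1AD, and the text keeps them apart by role.

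RNA was measured by sequencing as counts of read pairs per gene in 12 libraries, 3 biological replicates in each of 4 groups; the library kit is not known from the sources used here. The groups were HDAC1_S434A cells treated with H89 (called S434A cells with H89), HDAC1_S434A cells without it (S434A cells), WT_HDAC1 cells treated with H89 (WT cells with H89) and WT_HDAC1 cells without it (WT cells). HDAC1 is a histone deacetylase, S434A replaces a serine of it by alanine, and H89 is a small-molecule inhibitor of protein kinase A (PKA). The sources used here do not state the dose or duration of H89, how the mutant cells were made or whether they are 1 clone. The mutation itself cannot be read from a table of counts.

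Translation of most mRNAs starts when the cap-binding complex eIF4F and the factor eIF3 bring the small ribosomal subunit, loaded with eIF2 and the initiator tRNA, to the 5′ end of the mRNA, from which it scans to a start codon. Elongation then uses eEF1A to bring each aminoacyl-tRNA, the eEF1B complex to recharge eEF1A with GTP, and eEF2 to move the ribosome by a codon. Several of these factors, among them eEF1A and eEF2, are made from TOP mRNAs, which begin with a C and an uninterrupted run of pyrimidines and which, with the mRNAs of ribosomal proteins, are translated under the control of the kinase mTOR.

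The annotated starts of 9 members are shown because TOP mRNAs are defined by their cap-proximal letters. Each line gives 30 bases before and 20 bases from the start of the gene, 5′ to 3′, from the RefSeq promoter table (GRCh38.p14), and the capitals mark a run of C and T that begins with C exactly at that start and is at least 5 letters long.
EEF1A1 (chr6:73521013-73521062, minus strand): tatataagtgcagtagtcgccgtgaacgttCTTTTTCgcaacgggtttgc
EEF2 (chr19:3985444-3985493, minus strand): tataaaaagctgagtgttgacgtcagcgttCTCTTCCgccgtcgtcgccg
EIF4B (chr12:53006426-53006475, plus strand): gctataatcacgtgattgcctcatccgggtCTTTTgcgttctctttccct
EIF3F (chr11:7987307-7987356, plus strand): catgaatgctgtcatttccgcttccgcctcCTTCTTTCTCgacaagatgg
EIF4A2 (chr3:186783547-186783596, plus strand): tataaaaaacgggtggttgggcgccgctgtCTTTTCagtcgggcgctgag
EIF2S3 (chrX:24054926-24054975, plus strand): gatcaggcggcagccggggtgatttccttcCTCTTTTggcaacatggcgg
EIF4G1 (chr3:184314576-184314625, plus strand): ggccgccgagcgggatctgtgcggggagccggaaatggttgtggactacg
EIF4E (chr4:98929114-98929163, minus strand): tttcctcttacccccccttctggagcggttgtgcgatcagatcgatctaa
EIF2S1 (chr14:67360298-67360347, plus strand): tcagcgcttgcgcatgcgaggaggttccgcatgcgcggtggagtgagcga

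Such a run stood at the start of 12 of the 48 members found in that table (25%), against 4.07% of all 35114 promoters in it. It was present in 4 of the 5 textbook TOP mRNAs that matched, EEF1A1, EEF2, EIF4B and EIF3F, and not in EEF1B2. EIF4A2 and EIF2S3, shown above, have such a run and are not on the textbook list, so the letters at the annotated start do not settle the type. The cAMP response element TGACGTCA, searched on both strands between 250 bases before and 50 bases after the start, was found in 1 of the 48 members (2.08%), EEF2, against 1.85% of all promoters. Its core TGACG, which the full element contains, was found in 43.8% of members and 24.6% of all promoters, and the E-box CACGTG in 27.1% of members and 7.26% of all promoters. These are matches of letters at annotated starts, and no binding was measured. Each member entered with 1 promoter and had passed the count minimum, while the 35114 promoters were not filtered by expression. The 2 sets are thus not like for like, and whether the higher shares are particular to these genes was not tested.

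Total counts per library ran from 17562754 to 37187794, highest in the 3 WT libraries. The 3 S434A libraries without H89 differed far more among themselves than those of any other group, with a biological coefficient of variation of 0.351, against 0.0547 in S434A cells with H89, 0.0733 in WT cells with H89 and 0.0191 in WT cells. Replicate 1 of S434A cells stood apart most, and its gene levels followed GC content (rank correlation over 14280 genes 0.81, against 0.706 and 0.129 in replicates 2 and 3 and -0.438 to -0.0652 in the other 9 libraries). Counts over all members that rest on S434A cells, and the values of some genes, are therefore also given without replicate 1. This leaves the trend of replicate 2 in place. The share of counts from mitochondrially encoded mRNAs was 5.57% to 5.94% in S434A cells with H89, 7.02%, 4.09% and 3.16% in S434A cells, 4.91% to 6.26% in WT cells with H89 and 1.48% to 1.51% in WT cells. All 8 hepatocyte markers were detected, and their summed level was 38549 to 39948 counts scaled per 1e6 (CPM) in S434A cells with H89, 23775 to 47910 in S434A cells, 37969 to 42831 in WT cells with H89 and 66664 to 67424 in WT cells. The 3 blood markers were at 0, 4 fibroblast markers summed to under 0.2 CPM, and 2 of 3 endothelial markers passed the filter and summed to 2.63 to 8.42 CPM. The part of the mitochondrial and hepatocyte shares in the results below was not tested.

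Levels are CPM, with library sizes scaled by TMM factors. In bulk samples, fewer cells of a type and less RNA per cell cannot be told apart. Together the 61 members took 3.02%, 3.13% and 3.08% of counts in S434A cells with H89, 2.84%, 2.89% and 3.14% in S434A cells, 3.01%, 2.93% and 3.09% in WT cells with H89, and 3.06%, 3.05% and 3.06% in WT cells. The members' total share was thus similar in the 4 groups, while that of the genes for cytosolic ribosomal proteins was 7.94% to 7.95% in S434A cells with H89, 9.51% to 11.5% in S434A cells, 7.38% to 7.78% in WT cells with H89 and 19.5% to 20% in WT cells. EEF1A1 and EEF2 alone made up most of the members' counts. The other members together took 0.978%, 0.993% and 0.988% in S434A cells with H89 and 0.88%, 0.954% and 1.02% in S434A cells. They took 0.985%, 0.95% and 0.983% in WT cells with H89 and 1.208%, 1.205% and 1.21% in WT cells, so the WT libraries were the highest. EEF1A1 had the highest level per kilobase of exon in all 4 groups. Its mean was 2552 ± 91.2 CPM per kilobase in S434A cells with H89, 2220.4 ± 235 in S434A cells, 2507 ± 171 in WT cells with H89 and 2719.5 ± 19.7 in WT cells (SD, n = 3 each, as in all means below). EEF1B2 ranked second per kilobase in WT cells, at 1839.9 ± 29.1 against 1786 ± 29.1 for EEF2, and stood after EEF1A1 and EEF2 in the other 3 groups.

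A total of 7 genes that fitted the symbol rule fell below the count minimum. EEF1G, the gamma subunit of eEF1B, is listed at 0 in all 12 libraries, and 99.7% of its exon bases are shared with another annotated gene. Read pairs in exons shared by 2 genes were dropped unless overlap was allowed, and the header of the table shows no such option, so a count of 0 does not show that EEF1G was silent. The readthrough genes EEF1AKMT4-ECE2 and EEF1E1-BLOC1S5, and EIF4E1B, were also at 0, and EIF4E3, EIF4EBP3 and EIF5AL1 had at most 13 counts in a library. For the same reason the levels of EIF4A1 (47.4% of exon bases shared), EIF3L (51.8%), EEF1AKMT4 (49.2%), EEF1D (34.0%), EEF2KMT (31.4%) and EIF2B2 (23.6%) are partial. EIF3C and EIF3CL are near-identical copies, EIF2S3B resembles EIF2S3, and EEF1A1 has processed pseudogenes, so reads of these genes may be split.

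S434A cells were first set against WT cells, both without H89, which asks what the loss of this serine does to untreated cells. Of the 61 members, 30 were lower and 10 were higher in S434A cells at an adjusted p under 0.05, against a background of 29.3% lower and 29% higher among the 14435 genes tested. Falls were thus 49.2% of members and rises 16.4%. At the study's own threshold, which adds a change of more than 2-fold, 9 members fell and 3 rose (11.3% and 11.6% of all genes). The median log2 fold change was -0.32 over the members and -0.04 over all genes. EIF3E, EEF1E1, EEF1B2, EIF2S1 and EIF4E were among the largest falls, and EIF4G1, EEF1A2, EEF2K and EIF4G3 rose most.

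Without replicate 1 of S434A cells, 33 members were lower and 11 higher, and all 30 falls and 9 of the 10 rises were among them. Of the 14667 genes in that fit, 4436 were lower and 4718 higher. Over 18 alternatives, 14 of the 30 falls and 5 of the 10 rises (EEF2K, EEFSEC, EIF4EBP2, EIF4G1 and EIF4G3) passed in every one. A fit that takes out the trend of counts with GC content and length in every library gave 25 falls and 22 rises, with 21 falls and 8 rises in common. Its median was 0.03 over the members and 0.09 over all genes. Of its 14280 genes 3846 fell and 4525 rose, so the members' rises were near the share of all genes.

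H89 was then tested within WT cells, which asks what the PKA inhibitor does when HDAC1 is intact. Of the 61 members, 29 fell and 11 rose with H89 (47.5% and 18%), against 30.9% lower and 38.8% higher among all genes. Past 2-fold, 14 fell and 5 rose (15.8% and 22.2% of all genes). The median log2 fold change of the members was -0.17, against 0.20 for all genes. EEF1B2, EEF1D, EIF6, EEF1E1 and EIF2S1 fell most, and EIF4G3, EIF3A, EIF4G1, EIF4G2 and EIF2S3B rose most. Of these calls, 22 falls and 6 rises passed in each of 17 alternatives. Size factors by RLE put the median of all genes at 0.05 and that of the members at -0.32. They gave 32 falls and 8 rises among the members, and 5046 falls and 4779 rises among 14435 genes. This comparison and the first share the 3 WT libraries, so their values are given side by side and their likeness is not a result.

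**Figure D1:**
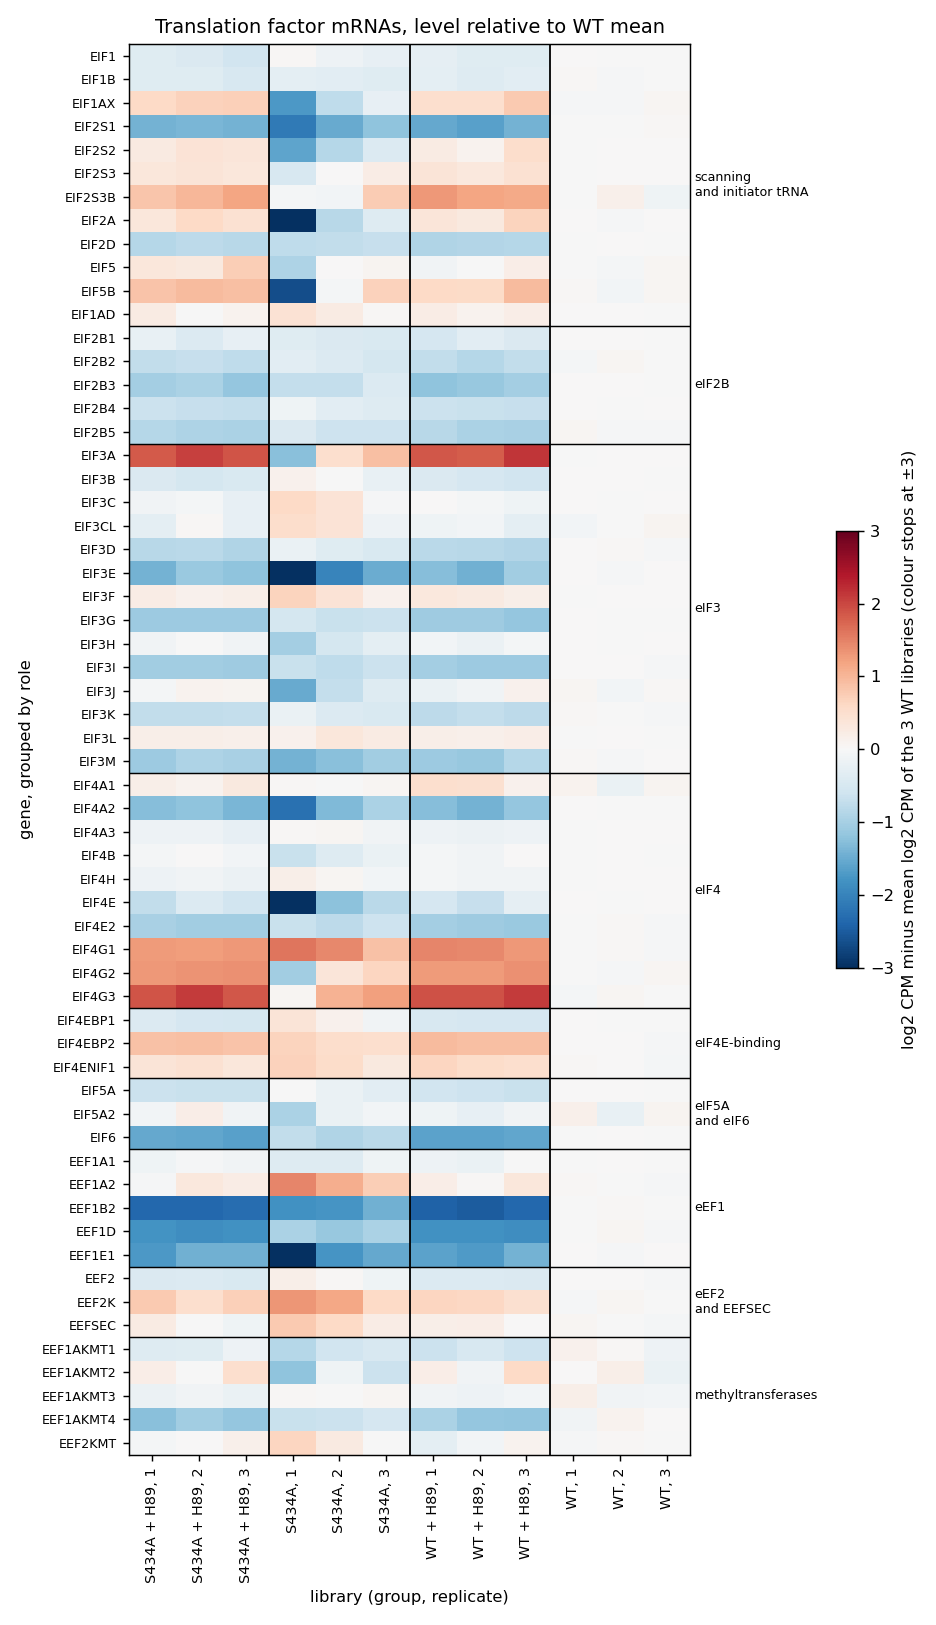
Level of 60 members in each of the 12 libraries (columns, in the order S434A with H89, S434A, WT with H89, WT) as log2 CPM minus the mean log2 CPM of the 3 WT libraries, with genes (rows) grouped by role. Blue is lower and red higher than WT. EEF1B2, EEF1D and EIF6 are blue in all 9 libraries outside WT, EIF4G1 is red in all 9, and replicate 1 of S434A cells is far lower than replicates 2 and 3 in EIF3A and EIF4E.

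H89 was also tested within S434A cells, against the same S434A libraries that entered the first comparison. Here 24 members fell and 15 rose with H89 (39.3% and 24.6%), against 22.7% lower and 29.3% higher among all genes. None of the falls was over 2-fold (2.35% of all genes), and 6 rises were (15.2% of all genes): EIF3A, EIF2A, EIF1AX, EIF2S2, EIF4G2 and EIF4G3. The medians were -0.09 for the members and 0.01 for all genes. Without replicate 1 of S434A cells 21 fell and 16 rose, of which 21 and 13 were shared, while 2884 and 4376 of 14667 genes did. Only 9 falls and 3 rises (EIF1AX, EIF2S2 and EIF4G3) passed in all 18 alternatives, and the rises numbered 7 with the GC and length trend removed and 4 when only the S434A libraries entered the fit. Among all genes the rises numbered 3238 of 14280 and 1171 of 13787 in the same order.

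S434A cells with H89 were finally set against WT cells with H89. No member and no gene passed in edgeR (0% higher and 0% lower), with 589 of 14435 genes and 1 member, EEF1AKMT1, at an unadjusted p under 0.05. DESeq2 and limma-voom with a weight per group called 2 and 3 genes, none of them a member. The members' median log2 difference was 0.00, and the largest was 0.43 ± 0.23 for EIF5. The standard error of the difference was 0.38 for EIF3A and 0.42 for EIF4E, so this fit would not have called a difference of that size. These errors use a spread shared by all groups, among them S434A cells without H89. The biological coefficient of variation of those cells was 0.351, against 0.0547 and 0.0733 in the groups compared. With only the groups compared in the fit, 0 of 13917 genes were higher and 0 lower.

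In what follows, a value with ± in parentheses is a log2 fold change with its standard error. Counts by role describe few members each and were not tested as sets. Genes of eEF1 were among the most changed. Of 5, 4 fell and 1 rose in S434A cells (29.3% and 29% of all genes), and 3 fell with H89 in WT cells (30.9% of all genes). EEF1B2 (chromosome 2, 207024309 to 207027652, hg19) encodes the guanine nucleotide exchange subunit beta of eEF1B. It had 690.1, 683 and 722 CPM in S434A cells with H89, 996, 1037 and 1306 CPM in S434A cells, 658, 626 and 684 CPM in WT cells with H89, and 3509.8, 3585 and 3476 CPM in WT cells. WT libraries were the highest by a wide margin, and the 3 S434A libraries without H89 lay between them and both H89 groups, without overlap. EEF1B2 fell in S434A cells with a log2 change of -1.66 ± 0.09 (adjusted p = 4.12e-07), with H89 in WT cells with one of -2.43 ± 0.09 (adjusted p = 6.05e-09) and with H89 in S434A cells with one of -0.67 ± 0.09 (adjusted p = 0.000289). The change in S434A cells was -1.59 without replicate 1. With the GC and length trend removed the changes were -1.20 in S434A cells and -1.77 with H89 in WT cells.

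EEF1D encodes the delta subunit, a second exchange factor of the same complex. Its level was 115, 109 and 114 CPM in S434A cells with H89, 207, 183 and 207 CPM in S434A cells, 114, 114 and 109.8 CPM in WT cells with H89, and 394, 414 and 392 CPM in WT cells. The groups had the same order as for EEF1B2 and did not overlap, apart from both H89 groups. Its log2 changes were -1.01 ± 0.06 (adjusted p = 4.9e-07) in S434A cells, -1.83 ± 0.06 (adjusted p = 4.41e-09) with H89 in WT cells and -0.82 ± 0.06 (adjusted p = 1.13e-05) with H89 in S434A cells. EEF1E1, which encodes a scaffold protein of the multi-tRNA synthetase complex, fell in S434A cells (-1.97 ± 0.28, adjusted p = 0.000125) and with H89 in WT cells (-1.57 ± 0.27, adjusted p = 0.000422). With the trend removed these were -0.67 and -0.69.

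EEF1A1, the main eEF1A gene, moved little beside its exchange factors. It had 13546, 14521 and 13848 CPM in S434A cells with H89, 11439, 11384 and 13641 CPM in S434A cells, 13442, 12956 and 14765 CPM in WT cells with H89, and 14851, 15008 and 14801 CPM in WT cells. The S434A libraries were below the WT libraries, while those of WT with H89 reached almost up to them. EEF1A1 was lower in S434A cells (-0.29 ± 0.08, adjusted p = 0.00648), with a difference of -0.12 ± 0.08 (adjusted p = 0.187) with H89 in WT cells, which passed with the trend removed (-0.17, adjusted p = 0.0229), and higher with H89 in S434A cells (0.20 ± 0.08, adjusted p = 0.0458). That last rise was lost without replicate 1 of S434A cells (0.16, adjusted p = 0.117) and was -0.01 with the trend removed. EEF1A2, the form best known from neurons and muscle, had 2.94, 3.76 and 3.51 CPM in S434A cells with H89, 8.34, 6.43 and 5.04 CPM in S434A cells, 3.43, 3.08 and 3.77 CPM in WT cells with H89, and 3.08, 2.99 and 2.92 CPM in WT cells. The S434A libraries were the highest in it, with log2 changes of 1.14 ± 0.18 (adjusted p = 0.000243) against WT cells and -0.95 ± 0.18 (adjusted p = 0.00195) with H89 in S434A cells, and 0.19 ± 0.18 (adjusted p = 0.37) with H89 in WT cells. With the GC and length trend removed the rise in S434A cells was 0.34 (adjusted p = 0.0348), and the value with H89 in WT cells turned to -0.39, a fall that passed (adjusted p = 0.021).

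Ratios of read pairs within a library need no scaling between libraries and show how unequal these changes were. Per 100 read pairs of EEF1A1, those of EEF1B2 numbered 5.09, 4.71 and 5.21 in S434A cells with H89, 8.7, 9.11 and 9.57 in S434A cells, 4.9, 4.83 and 4.63 in WT cells with H89, and 23.6, 23.9 and 23.5 in WT cells. The ratios of the 4 groups did not overlap except between the H89 groups.

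**Figure D2:**
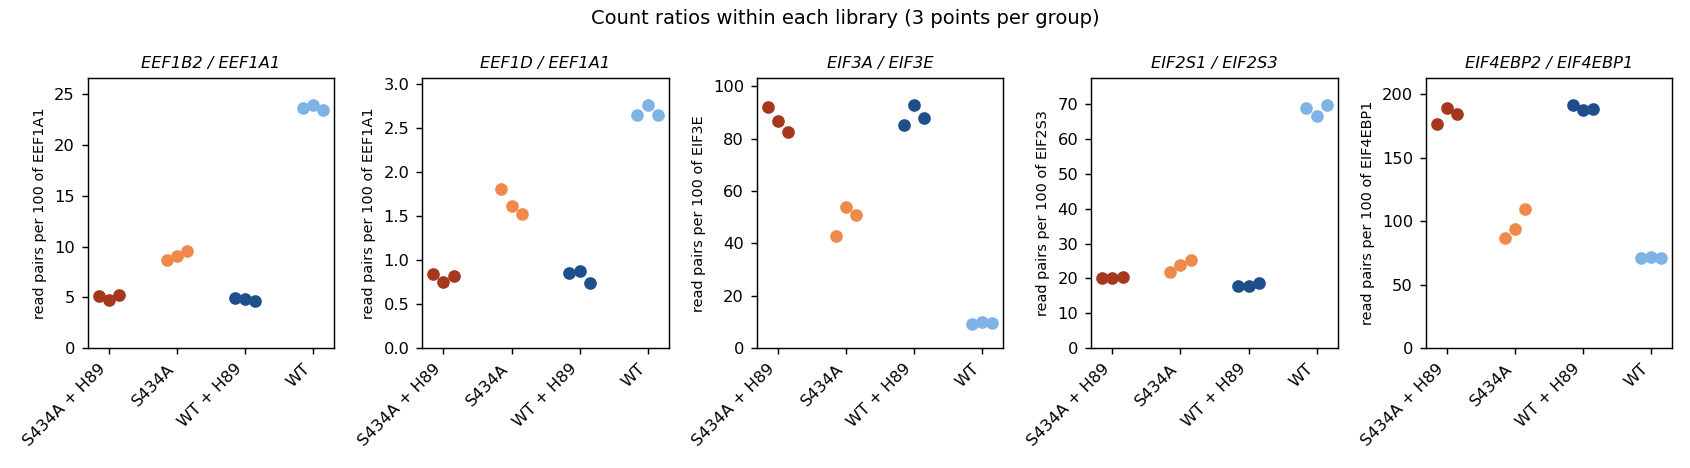
Read pairs of one member per 100 read pairs of a partner in each library (3 points per group, in the order S434A with H89, S434A, WT with H89, WT, y axis from 0), for EEF1B2 and EEF1D over EEF1A1, EIF3A over EIF3E, EIF2S1 over EIF2S3 and EIF4EBP2 over EIF4EBP1. In every panel drawn the 3 WT libraries stand apart from the other 9, and the S434A libraries lie between WT and the H89 groups, close to the H89 groups in the EIF2S1 panel. The ratios of EEF2 to EEF1A1 and of EIF4G1 to EIF4E, not drawn, did not keep this order. For EEF2 they were 70.5, 65.1 and 48.3 in S434A cells and 49.1, 47.9 and 47.7 in WT cells. For EIF4G1 they were 6693, 1443 and 733 in S434A cells, 927, 719 and 835 in S434A cells with H89, and 223, 236 and 224 in WT cells. The ratios keep any trend with GC content and length, and exon lengths differ most in the last panel (7491 and 880 bases).

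EEF2, which encodes the translocation factor, differed in the H89 groups. Its level was 5320.2, 5390.3 and 5253 CPM in S434A cells with H89, 8064, 7407 and 6589.5 CPM in S434A cells, 5399, 5407 and 5348 CPM in WT cells with H89, and 7296, 7183 and 7062 CPM in WT cells. The 6 H89 libraries lay below the 6 others. EEF2 fell with H89 in WT cells (-0.41 ± 0.07, adjusted p = 0.000182) and in S434A cells (-0.47 ± 0.07, adjusted p = 0.000372), where the call was lost with the trend removed (-0.13, adjusted p = 0.0777). Its difference between S434A and WT cells was 0.03 ± 0.07 (adjusted p = 0.677), with the sign turned under RLE scaling (-0.03), and once the trend was removed it was -0.38 and passed. EEF2K, the kinase that inhibits eEF2 by phosphorylation, rose in S434A cells (1.06 ± 0.15, adjusted p = 0.000143) and with H89 in WT cells (0.58 ± 0.15, adjusted p = 0.006), where the second call was lost with the trend removed (0.15). EEFSEC, the elongation factor for selenocysteine, rose in S434A cells (0.56 ± 0.14, adjusted p = 0.00505), and fell with H89 in S434A cells (-0.52 ± 0.14, adjusted p = 0.0109), with 0.12 ± 0.14 (adjusted p = 0.445) for H89 in WT cells. That fall was lost with the trend removed (-0.10, adjusted p = 0.397) and the value for WT cells became a rise that passed (0.51, adjusted p = 0.000173).

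The factors that load and scan with the initiator tRNA did not move together. EIF2S1 encodes the alpha subunit of eIF2, whose phosphorylation lowers initiation. It had 56.5, 58.7 and 56.9 CPM in S434A cells with H89, 34.6, 52.9 and 65.7 CPM in S434A cells, 52.1, 48.6 and 57 CPM in WT cells with H89, and 150.0, 149 and 155 CPM in WT cells. WT libraries were more than 2-fold above the others, and the other 3 groups overlapped. EIF2S1 fell in S434A cells (-1.57 ± 0.18, adjusted p = 2.59e-05, or -1.35 without replicate 1) and with H89 in WT cells (-1.52 ± 0.18, adjusted p = 1.84e-05). Its change with H89 in S434A cells was 0.17 ± 0.17 (adjusted p = 0.441), or -0.92 with the trend removed. EIF2S3, the gamma subunit of the same complex, rose with H89 in WT cells (0.39 ± 0.14, adjusted p = 0.0245), a call made in only 7 of 17 alternatives. Per 100 read pairs of EIF2S3, those of EIF2S1 numbered 20, 20.2 and 20.3 in S434A cells with H89, 21.9, 23.9 and 25.4 in S434A cells, 18, 17.7 and 18.6 in WT cells with H89, and 68.9, 66.5 and 69.7 in WT cells.

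EIF2S2, the beta subunit, had 262, 293 and 284 CPM in S434A cells with H89, 73.3, 122 and 164 CPM in S434A cells, 262, 236 and 314 CPM in WT cells with H89, and 218, 219.8 and 220.5 CPM in WT cells. Here S434A libraries were the lowest, and H89 libraries and WT libraries did not overlap but lay close. It fell in S434A cells (-0.87 ± 0.23, adjusted p = 0.00657), a call that ended with the trend removed (-0.31, adjusted p = 0.105), and rose with H89 in S434A cells (1.22 ± 0.23, adjusted p = 0.002). EIF2D, a factor that can deliver initiator tRNA without eIF2, fell in S434A cells (-0.73 ± 0.05, adjusted p = 7.5e-07) and with H89 in WT cells (-0.88 ± 0.05, adjusted p = 5.49e-08).

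EIF1, which guards start codon choice, had 557, 533 and 485 CPM in S434A cells with H89, 730.4, 650.3 and 602 CPM in S434A cells, 598, 554 and 555 CPM in WT cells with H89, and 721, 716 and 714 CPM in WT cells. Its WT and S434A libraries overlapped, with -0.12 ± 0.08 (adjusted p = 0.21) between them, a difference that passed as a fall without replicate 1 of S434A cells (-0.20, adjusted p = 0.0237) and as a rise with the trend removed (0.27, adjusted p = 0.0303). EIF1 fell with H89 in WT cells (-0.33 ± 0.08, adjusted p = 0.00247, or 0.03 with the trend removed) and in S434A cells (-0.33 ± 0.08, adjusted p = 0.00544). EIF1AX, which works beside eIF1 on the scanning ribosome, and EIF2A, another initiator tRNA factor, rose with H89 in S434A cells by 1.45 ± 0.27 and 1.52 ± 0.46 on the log2 scale, and the call for EIF2A was lost in 5 of 18 alternatives. EIF2S3B was at 2.88, 2.66 and 2.59 CPM in WT cells with H89, against 1.16, 1.3 and 1.07 CPM in WT cells, and rose (1.21 ± 0.20, adjusted p = 0.000267). Of the 13 members in this role, 6 fell and none rose in S434A cells, 5 fell and 2 rose with H89 in WT cells, and 1 fell and 6 rose with H89 in S434A cells. The shares of all genes that fell and rose were 29.3% and 29%, 30.9% and 38.8%, and 22.7% and 29.3% in the same order. EIF1AY belongs to this role and is counted only.

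All 5 subunits of eIF2B, the exchange factor that recharges eIF2, fell in S434A cells (29.3% of all genes did) and with H89 in WT cells (30.9%). Their log2 changes ran from -0.61 to -0.27 in S434A cells and from -1.12 to -0.41 with H89 in WT cells, largest in EIF2B3 both times. EIF2B3 had 25.8, 27.1 and 23.5 CPM in S434A cells with H89, 32, 31.8 and 39.2 CPM in S434A cells, 22.6, 23.8 and 26 CPM in WT cells with H89, and 52.5, 52.4 and 52.2 CPM in WT cells. Its H89 groups were the lowest and WT the highest, and S434A libraries lay between. EIF2B3 changed by -0.61 ± 0.10 (adjusted p = 0.00028) in S434A cells and by -1.12 ± 0.10 (adjusted p = 2.07e-06) with H89 in WT cells. EIF2B5, the catalytic epsilon subunit, changed by -0.56 ± 0.07 (adjusted p = 6.2e-05) and -0.92 ± 0.07 (adjusted p = 8.67e-07) in the same order. With the GC and length trend removed 4 of the 5 still fell in both comparisons, EIF2B1 being the exception (0.03 and -0.07). With H89 in S434A cells 4 of 5 fell (22.7% of all genes did), among them EIF2B4 (-0.41 ± 0.07, adjusted p = 0.00125) and EIF2B5 (-0.35 ± 0.07, adjusted p = 0.00297).

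The 14 tested genes of eIF3, the largest initiation factor, moved in both directions. In S434A cells 8 fell and 3 rose (29.3% and 29% of all genes). With H89 in WT cells 7 fell and 2 rose (30.9% and 38.8%), and with H89 in S434A cells 7 fell and 3 rose (22.7% and 29.3%). EIF3A, the largest subunit and a scaffold of the complex, had 281, 326 and 291 CPM in S434A cells with H89, 32.6, 111 and 147 CPM in S434A cells, 283, 276 and 346 CPM in WT cells with H89, and 77.1, 79 and 78.9 CPM in WT cells. Both H89 groups were more than 3-fold above WT, and the S434A libraries ran from below to above it. EIF3A rose with H89 in WT cells (1.95 ± 0.40, adjusted p = 0.00127) and in S434A cells (1.62 ± 0.39, adjusted p = 0.00728), with 0.31 ± 0.39 (adjusted p = 0.522) for S434A against WT, or 0.72 without replicate 1, which then passed (adjusted p = 8.26e-05).

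EIF3E, another subunit, had 305, 376 and 353 CPM in S434A cells with H89, 75.9, 206 and 289.6 CPM in S434A cells, 333, 297 and 393 CPM in WT cells with H89, and 824, 796 and 815 CPM in WT cells. Every WT library was above every other library. EIF3E fell in S434A cells (-2.09 ± 0.36, adjusted p = 0.000539, or -1.71 without replicate 1) and with H89 in WT cells (-1.25 ± 0.35, adjusted p = 0.00892). Per 100 read pairs of EIF3E, those of EIF3A numbered 92.1, 86.8 and 82.5 in S434A cells with H89, 43, 53.9 and 50.9 in S434A cells, 85.2, 92.8 and 87.9 in WT cells with H89, and 9.36, 9.93 and 9.67 in WT cells, so the WT libraries stood far below all others. EIF3I, EIF3G and EIF3M fell in both comparisons. Their log2 changes were -0.69 ± 0.05, -0.61 ± 0.05 and -1.24 ± 0.10 in S434A cells, and -1.07 ± 0.05, -1.10 ± 0.05 and -1.02 ± 0.10 with H89 in WT cells. The fall of EIF3M in S434A cells was lost with the trend removed (-0.35). EIF3F, a TOP mRNA, was higher in S434A cells (0.42 ± 0.11, adjusted p = 0.00699), a call lost with the trend removed (adjusted p = 0.0579). EIF3D, which can itself bind caps, and EIF3G fell with H89 in S434A cells (-0.51 ± 0.06, adjusted p = 0.000206 and -0.48 ± 0.05, adjusted p = 0.000101), and the call for EIF3G was lost with the trend removed (-0.13, adjusted p = 0.181).

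The scaffolds and the cap-binding subunit of eIF4F parted. EIF4G1 encodes the main scaffold, which joins the cap-binding protein to eIF3. It had 433.7, 423 and 438 CPM in S434A cells with H89, 547, 483 and 329 CPM in S434A cells, 489.8, 482 and 437 CPM in WT cells with H89, and 177, 183 and 176 CPM in WT cells. The 9 libraries outside WT were all above the 3 WT libraries. EIF4G1 rose by 1.34 ± 0.14 (adjusted p = 1.81e-05) in S434A cells and by 1.39 ± 0.14 (adjusted p = 7.58e-06) with H89 in WT cells, and differed by -0.07 ± 0.14 (adjusted p = 0.698) with H89 in S434A cells. With the trend removed the rises were 0.48 and 0.68, and both passed.

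EIF4G3, another scaffold, had 54.3, 62.5 and 52.6 CPM in S434A cells with H89, 15.1, 30 and 33.9 CPM in S434A cells, 55, 55 and 62.5 CPM in WT cells with H89, and 14.1, 15.1 and 14.5 CPM in WT cells. Replicate 1 of S434A cells was level with the WT libraries, and all H89 libraries were above the rest. EIF4G3 rose in S434A cells (0.85 ± 0.23, adjusted p = 0.00837), with H89 in WT cells (1.98 ± 0.23, adjusted p = 2.39e-05) and with H89 in S434A cells (1.10 ± 0.23, adjusted p = 0.00349). EIF4G2, a relative of eIF4G that does not bind eIF4E, rose with H89 in WT cells (1.31 ± 0.31, adjusted p = 0.00325) and in S434A cells (1.19 ± 0.31, adjusted p = 0.0102), with 0.15 ± 0.31 (adjusted p = 0.704) for S434A against WT, or 0.51 without replicate 1, which then passed (adjusted p = 3.41e-05). Its rise with H89 in S434A cells was lost in 5 of 18 alternatives, among them that with the trend removed (0.09, adjusted p = 0.218), in which the difference between S434A and WT cells passed (0.42, adjusted p = 4.22e-05).

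EIF4E, the cap-binding protein itself, had 46.8, 58.8 and 52.5 CPM in S434A cells with H89, 8.18, 33.5 and 44.9 CPM in S434A cells, 55.3, 48.6 and 65.5 CPM in WT cells with H89, and 79.3, 77.4 and 78.6 CPM in WT cells. WT libraries were the highest, and the 3 S434A libraries spread from 8.18 to 44.9 CPM, all below both H89 groups. EIF4E fell in S434A cells (-1.44 ± 0.43, adjusted p = 0.0146, or -1.0 without replicate 1), with -0.47 ± 0.42 (adjusted p = 0.332) for H89 in WT cells. The last standard error shares the spread of the S434A libraries. The WT libraries with H89 (48.6 to 65.5 CPM) all lay below those without it (77.4 to 79.3 CPM). Once the trend was removed the H89 value was -1.53, a fall that passed (adjusted p = 1.14e-08). EIF4E2, a cap-binding homologue linked to repression, fell in S434A cells (-0.68 ± 0.06, adjusted p = 4.67e-06), with H89 in WT cells (-1.07 ± 0.06, adjusted p = 6.13e-08) and with H89 in S434A cells (-0.33 ± 0.06, adjusted p = 0.00165). The helicase gene EIF4A2 fell in S434A cells (-1.42 ± 0.24, adjusted p = 0.000479) and with H89 in WT cells (-1.28 ± 0.24, adjusted p = 0.000731). EIF4B, whose protein stimulates the helicase and whose mRNA is of the TOP type, fell in S434A cells (-0.41 ± 0.10, adjusted p = 0.00344), with -0.05 ± 0.10 for H89 in WT cells, or -0.20 with the trend removed, which passed (adjusted p = 0.0125).

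**Figure D3:**
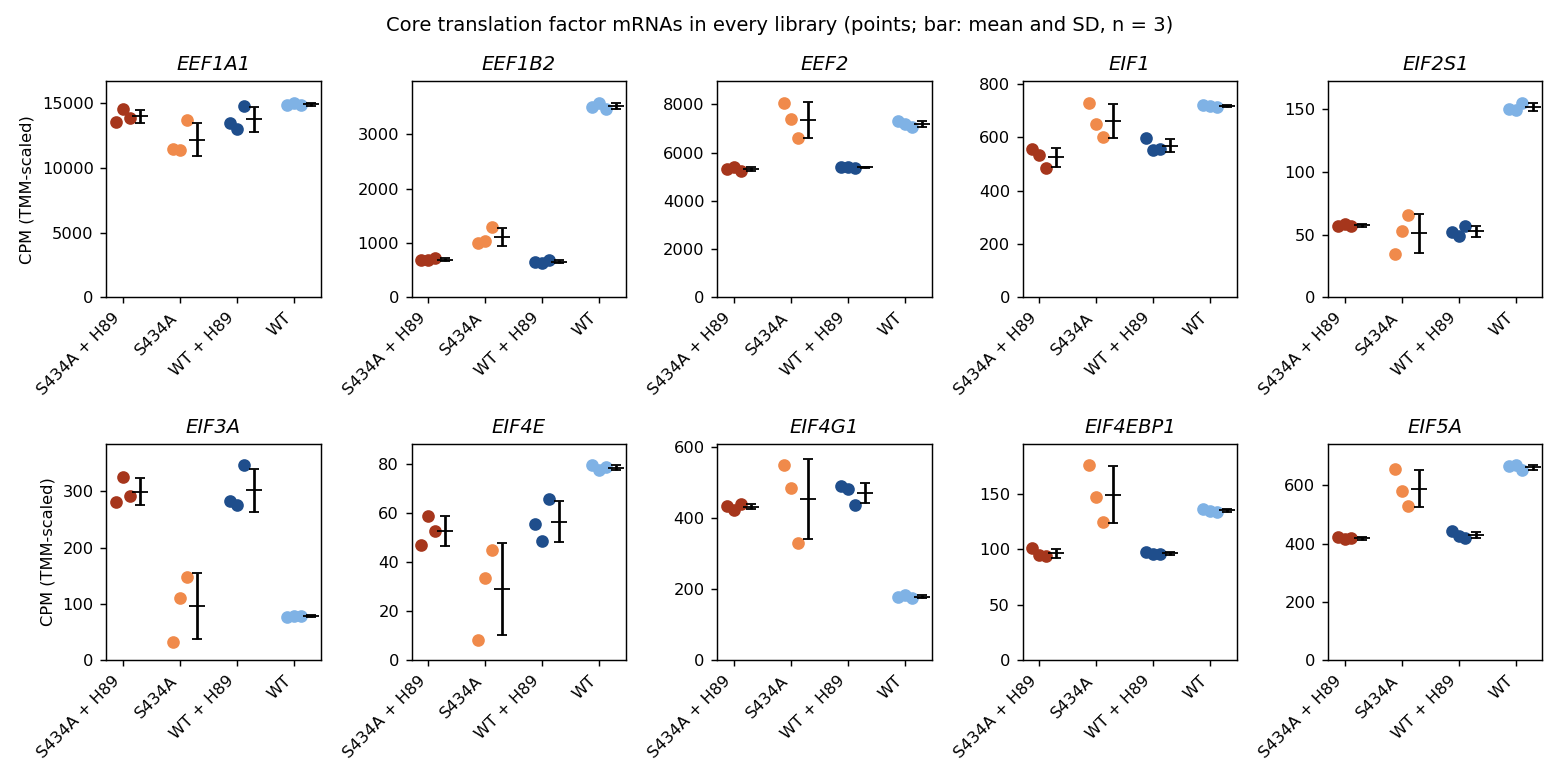
CPM of 10 core members in every library (points) with the group mean and SD (bar, n = 3), in the order S434A with H89, S434A, WT with H89, WT, y axes from 0. EEF1B2 and EIF2S1 are highest in WT, EIF4G1 is lowest in WT, EIF3A is highest in both H89 groups, and the S434A points of EIF4E spread from 8.18 to 44.9 CPM.

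The eIF4E-binding repressors EIF4EBP1 and EIF4EBP2 parted with H89 in the main fit and in most alternatives. In WT cells EIF4EBP1 fell in 15 of 17 alternatives, and EIF4EBP2 rose in 15 of 17. In S434A cells EIF4EBP1 fell in 16 of 18, and EIF4EBP2 rose in 11 of 18. With the GC and length trend removed, EIF4EBP1 and EIF4EBP2 had the same sign as each other in both genotypes. In S434A against WT cells the changes of all 3 members of this role were positive (0.14 to 0.57). EIF4EBP1 has 880 bases of exon and EIF4EBP2 has 7491. EIF4EBP1, the best known of them, had 101, 94.7 and 93.8 CPM in S434A cells with H89, 176, 148 and 125 CPM in S434A cells, 97.6, 95.8 and 95.8 CPM in WT cells with H89, and 137, 135 and 134 CPM in WT cells. The H89 libraries were the lowest, and S434A and WT libraries overlapped. It fell with H89 in WT cells (-0.49 ± 0.10, adjusted p = 0.0012) and in S434A cells (-0.63 ± 0.10, adjusted p = 0.000808), with 0.14 ± 0.10 (adjusted p = 0.239) for S434A against WT. With the trend removed its change with H89 in WT cells was 0.28, a rise that passed, so its direction depended on that step. In S434A cells the fall with H89 was lost (-0.16, adjusted p = 0.0504), and the difference between S434A and WT cells passed (0.43, adjusted p = 6.03e-05). EIF4EBP2 had 179, 179 and 173 CPM in S434A cells with H89, 153, 139 and 137 CPM in S434A cells, 187, 179.5 and 181 CPM in WT cells with H89, and 97.6, 97.2 and 94.7 CPM in WT cells. The WT libraries were the lowest and the S434A libraries lay between them and both H89 groups. It rose in S434A cells (0.57 ± 0.06, adjusted p = 9.63e-06), with H89 in WT cells (0.92 ± 0.06, adjusted p = 1.04e-07) and with H89 in S434A cells (0.31 ± 0.06, adjusted p = 0.00157), of which the trend's removal ended the second (0.37, adjusted p = 0.115) and turned the third to -0.46 (adjusted p = 0.0874). EIF4ENIF1, a shuttling protein that carries eIF4E to the nucleus, rose in S434A cells (0.52 ± 0.11, adjusted p = 0.00138) and with H89 in WT cells (0.56 ± 0.11, adjusted p = 0.000679).

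EIF5A, whose protein carries hypusine and relieves stalled ribosomes, had 424, 414 and 418 CPM in S434A cells with H89, 656, 579.7 and 529 CPM in S434A cells, 442, 427 and 419 CPM in WT cells with H89, and 665, 668 and 652 CPM in WT cells. The H89 libraries were below all others. EIF5A fell with H89 in WT cells (-0.62 ± 0.07, adjusted p = 1.36e-05) and in S434A cells (-0.49 ± 0.07, adjusted p = 0.000416), and differed by -0.17 ± 0.07 (adjusted p = 0.0554) between S434A and WT cells. With the trend removed the fall in S434A cells was lost (-0.09, adjusted p = 0.0858) and the difference between S434A and WT cells passed (-0.12, adjusted p = 0.0167), as it did without replicate 1 (-0.26, adjusted p = 0.00164). EIF6, which keeps the large ribosomal subunit from joining too early and takes part in its assembly, had 219, 216 and 207 CPM in S434A cells with H89, 386, 340.4 and 367 CPM in S434A cells, 212, 211 and 216 CPM in WT cells with H89, and 634, 648 and 633 CPM in WT cells. The groups were ordered WT, S434A, then both H89 groups, which overlapped. EIF6 fell in S434A cells (-0.81 ± 0.05, adjusted p = 8.15e-07), with H89 in WT cells (-1.59 ± 0.06, adjusted p = 4.41e-09) and with H89 in S434A cells (-0.77 ± 0.05, adjusted p = 1.05e-05).

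The methyltransferase genes were low, at under 20 CPM. EEF1AKMT4 and EEF1AKMT1 fell in S434A cells (-0.61 ± 0.11, adjusted p = 0.000617 and -0.62 ± 0.13, adjusted p = 0.00172) and with H89 in WT cells (-1.10 ± 0.11, adjusted p = 5.85e-06 and -0.59 ± 0.13, adjusted p = 0.00189). With the GC and length trend removed none of these falls passed, and EEF1AKMT1 was at 0.09 and 0.17. EEF1AKMT2 rose with H89 in S434A cells (0.84 ± 0.27, adjusted p = 0.0242), a call lost without replicate 1 of S434A cells (0.61, adjusted p = 0.0618) and with the trend removed (-0.29). EEF1AKMT4 fell there (-0.54 ± 0.11, adjusted p = 0.00331), and that call too was lost with the trend removed (-0.07, adjusted p = 0.641).

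Whether H89 acted differently in the 2 genotypes was tested as the difference of its log2 effects, S434A minus WT. That difference was positive in 27 members and negative in 9 at an adjusted p under 0.05 (44.3% and 14.8% of members, against 24% and 24% of all genes), with a median of 0.33 over members and 0.07 over all genes. It was over 1 on the log2 scale for 8 members and under -1 for 2 (11.7% and 12.4% of all genes). EEF1B2 differed by 1.75 ± 0.13 (adjusted p = 7.46e-06), EIF2S1 by 1.69 ± 0.25 (adjusted p = 0.000273), EEF1D by 1.01 ± 0.08 (adjusted p = 1e-05) and EIF6 by 0.82 ± 0.08 (adjusted p = 1.81e-05), so the effect of H89 on these was more negative in WT cells than in S434A cells. EIF4G1 differed by -1.46 ± 0.20 (adjusted p = 0.000188), EEF1A2 by -1.14 ± 0.26 (adjusted p = 0.00359) and EEF2K by -0.96 ± 0.22 (adjusted p = 0.00381). Differences for other core members were -0.32 ± 0.54 for EIF3A, 1.34 ± 0.60 for EIF4E, 0.32 ± 0.11 for EEF1A1 and -0.05 ± 0.09 for EEF2, of which only EEF1A1 passed, in 15 of 23 alternatives as well. EIF4E passed without replicate 1 of S434A cells (0.90, adjusted p = 0.000736), as did EIF3A (-0.74, adjusted p = 0.00104). EIF4E (1.12) and EEF2 (0.39) passed with the trend removed, while EEF1A1 (0.16, adjusted p = 0.138) and EEF1A2 (-0.30, adjusted p = 0.206) did not. By construction the difference of effects equals the S434A minus WT difference with H89 minus that without H89, so each such value rests on the same libraries as the comparisons above. With the GC and length trend removed 20 members were positive and 16 negative, with a median of 0.05, and they shared 16 of the 27 positive and 7 of the 9 negative calls, 1 positive call having turned negative. Of the 14280 genes in that fit 3208 were positive and 3644 negative, with a median of -0.07. Without replicate 1 of S434A cells 32 members were positive and 11 negative (4013 and 4110 of 14667 genes), and 15 and 4 of the calls passed in all 23 alternatives.

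The members' changes with H89 in S434A cells ran with the GC content of their transcripts. Over the 61 members the rank correlation of log2 change with GC content of the longest transcript was 0.43 for S434A against WT, -0.12 for H89 in WT and -0.82 for H89 in S434A, against 0.45, -0.08 and -0.66 over 14280 genes. The members are not independent points, since all share the same libraries. GC-rich members such as EEF1D and EIF4EBP1 fell with H89 in S434A cells and AT-rich members such as EIF1AX rose. The correlation with exon length was 0.15, 0.30 and 0.32 over the members in the same order, against 0.26, 0.47 and 0.37 over 14280 genes. Gene levels relative to the mean of all libraries also ran with exon length. That correlation over all genes was -0.427 to -0.415 in WT libraries, -0.192 to -0.0789 in S434A libraries and 0.424 to 0.458 in both H89 groups. Longer genes thus tended to rise with H89 in WT cells and shorter genes to fall.

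**Figure D4:**
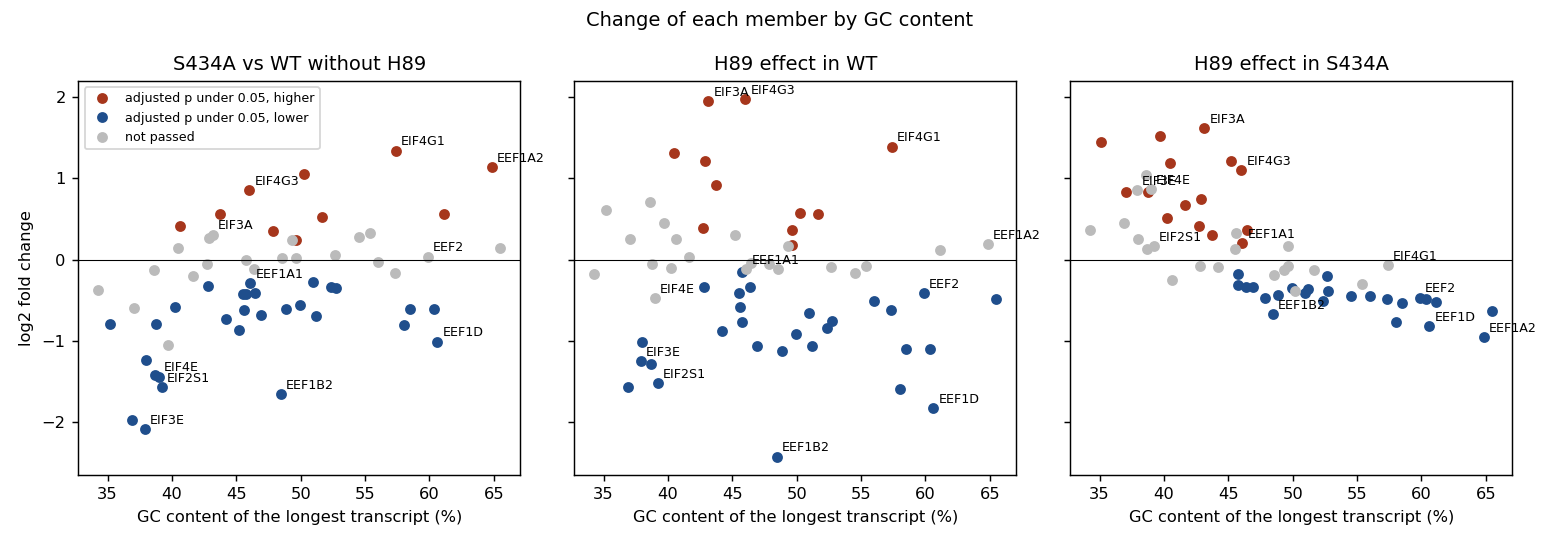
Log2 fold change (y axis) against GC content of the longest transcript in percent (x axis) for 60 members in 3 comparisons. Red points rose and blue points fell at an adjusted p under 0.05, and grey points did not pass. For H89 in S434A cells the points run from upper left to lower right (rank correlation -0.82 over 61 members), while EEF1B2 and EEF1D are low and EIF4G1 is high for H89 in WT cells.

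**Figure D5:**
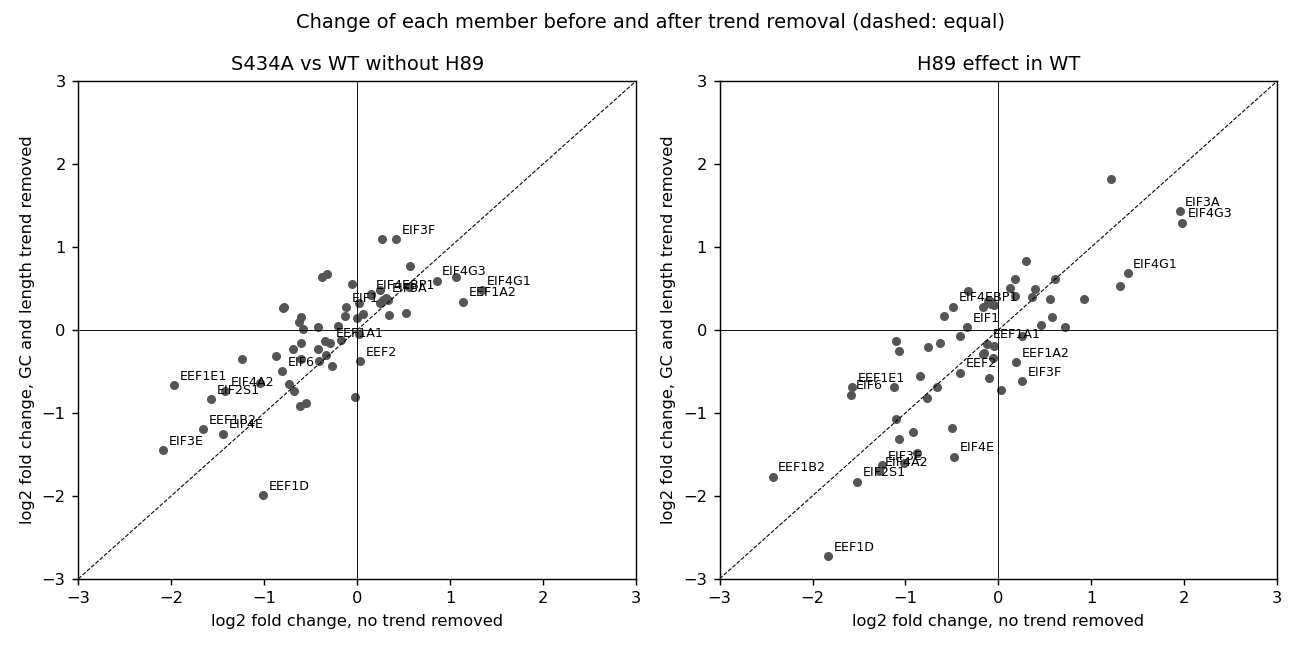
Log2 fold change of 60 members as fitted (x axis) and with the trend on GC content and length taken out of every library (y axis), for S434A against WT cells without H89 and for H89 in WT cells. Points on the dashed line are equal. EEF1B2, EEF1D, EIF2S1, EIF3E and EIF4A2 stay below 0, and EIF4G1 and EIF4G3 above 0, on both axes of both panels.

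Of 9 textbook TOP mRNAs tested among the members, 6 fell and 2 rose in S434A cells, 4 fell and none rose with H89 in WT cells, and 4 fell and 3 rose with H89 in S434A cells, with medians of -0.41, -0.12 and -0.25. Among all genes 29.3%, 30.9% and 22.7% fell and 29%, 38.8% and 29.3% rose in the same order. Of 85 ribosomal protein genes tested, 81, 82 and 59 fell in the same order and 0, 0 and 1 rose, with medians of -1.26, -1.74 and -0.37. No test of the difference between the lists was made. EEF1A1, EEF2 and EIF4B, each with a run at its start, had log2 changes of -0.12, -0.41 and -0.05 with H89 in WT cells, and EEF1B2 had -2.43.

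Other genes of the pathway, listed by function, were counted beside the members. Of 23 regulators of initiation, 7 rose and 3 fell in S434A cells, 14 rose and 2 fell with H89 in WT cells, and 12 rose and 2 fell with H89 in S434A cells, with medians of 0.17, 0.78 and 0.40. Among all genes 29% rose and 29.3% fell in S434A cells, 38.8% and 30.9% with H89 in WT cells, and 29.3% and 22.7% with H89 in S434A cells, so the 7 rises of 23 in S434A cells were near the background. The same shares apply to the lists that follow. MTOR, its partner RPTOR and LARP1, which binds TOP mRNAs, rose by 1.49 ± 0.11, 1.72 ± 0.17 and 1.27 ± 0.10 in S434A cells and by 1.52 ± 0.11, 1.53 ± 0.17 and 1.55 ± 0.10 with H89 in WT cells. PABPC1, the poly(A)-binding protein that contacts eIF4G, rose by 0.84 ± 0.05 and 1.33 ± 0.05. Of 5 termination and recycling factors tested, 1 rose and 1 fell in S434A cells, 1 rose with H89 in WT cells and 3 rose with H89 in S434A cells, among them ETF1, the release factor that reads stop codons (1.22 ± 0.28). Of 8 mitochondrial translation factors tested, 5 fell in S434A cells, 2 fell with H89 in WT cells, and 6 rose and 1 fell with H89 in S434A cells. TUFM, the mitochondrial elongation factor Tu, fell in all 3 comparisons, with log2 changes of -0.22 ± 0.06, -0.68 ± 0.06 and -0.51 ± 0.06, and none of these calls passed with the trend removed.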

How the data were processed

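Per the labels, RNA of HepG2 cells was sequenced in 12 libraries, 3 for each pairing of genotype (HDAC1_S434A, WT_HDAC1) with H89 (with, without). The submitters' processing notes name Bowtie 0.12.2 and the build hg19. The deposited table holds raw counts of read pairs per gene, which the authors made with featureCounts 2.0.1 per the file headers (paired reads counted by exon and gene identifier, with no option shown for strand, for pairs in more than 1 gene or for pairs with several hits). Those counts were fitted here with edgeR 4.0.16 in R 4.3.3: filterByExpr with a count minimum of 10, TMM factors, a quasi-likelihood test across all 14435 genes passed and all 12 libraries, with Benjamini-Hochberg adjusted p-values called under 0.05. Every adjusted p and standard error in the text comes from that test, or from the named alternative of it. A gene's spread is shared by all groups, so the S434A libraries without H89 also enter standard errors of comparisons that leave them out. GC content is that of a gene's longest transcript in the reference annotation, with 14280 genes matched. The alternative with a GC and length offset fits each library's trend with splines of 5 degrees of freedom.

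Further alternatives were DESeq2 1.42.0, limma-voom (limma 3.58.1) without and with a weight per group, size factors by RLE or the upper quartile, no filter, at least 1 CPM in 3 libraries, only the groups compared, a replicate block and leaving out each library. The same offset without replicate 1 of S434A cells was added after the data were seen. The fit was tested on simulated data. Genes named in each comparison were 10 core members, the 5 largest rises and 5 largest falls called (where H89 effects were compared, the 5 lowest p-values each way), and the 2 members of each role with the smallest p. Other genes given beside them, such as EIF2S3, EIF3F, EIF4A2, EIF4B and EIF2B1, were chosen after their values were seen. The members and lists were chosen with earlier results of these data known. The sources used here do not say whether the biological replicates came from separate cultures, so p-values measure only the spread between these libraries, which may be technical.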

Additional observations from a re-analysis of the deposited data

Results flagged for a closer look

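The effect of H89 differed between the genotypes in 19 of the members that the naming rule picked for this comparison. The test was that of the difference itself (edgeR's quasi-likelihood test, S434A minus WT, log2 scale). Each value rests on the S434A libraries that spread most. The difference was negative for EIF4G1 (-1.46), EEF1A2 (-1.14), EEF2K (-0.96), EIF4ENIF1 (-0.69), EEFSEC (-0.65) and EIF4EBP2 (-0.61). It was positive for EEF1B2 (1.75), EIF2S1 (1.69), EIF3M (1.27), EEF1D (1.01), EEF1AKMT1 (0.92), EIF6 (0.82), EIF2D (0.79), EIF4E2 (0.74), EIF3I (0.71), EIF2B3 (0.68), EEF1AKMT4 (0.56), EIF2B5 (0.56) and EEF1A1 (0.32). Without replicate 1 of S434A cells, all 27 positive and all 9 negative calls among the 61 members passed again. With the GC and length trend removed 16 of the 27 and 7 of the 9 did, and 1 positive call turned negative. Of the genes above, EEF1A1 was called in 15 of 23 alternatives, EEFSEC in 18, EEF1AKMT4 in 19 and EEF1A2 in 20, with a difference of -0.30 for EEF1A2 once the trend was removed (adjusted p = 0.206). Members named in the text for other comparisons passed too. The difference was positive for EIF3E (2.10), EEF1E1, EIF4A2, EIF3G and EIF3D, each called in all 23 alternatives, and for EIF4B (0.42, called in 22). It was negative for EIF3F (-0.50, called in 16) and EIF4G3 (called in 9).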

How the results depend on the processing

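Counts of members called moved by more than 1.5 times under the settings given first here, and the cause was not tested. Rises in S434A against WT cells without H89 numbered 22 with the GC and length offset, 21 with offset and replicate block and 18 with the offset without replicate 1 of S434A cells, against 10, and falls numbered 16 when only those groups were fitted, against 30. Rises with H89 in WT cells numbered 17 in limma-voom with a weight per group, 19 with the offset and 19 with offset and block, against 11. Rises with H89 in S434A cells numbered 9 without a filter, 7 with the offset, 6 with offset and block, 4 with only those groups and 6 with the offset without replicate 1, against 15. Negative differences of H89 effects numbered 16, 16 and 18 under the 3 offset fits, against 9. Over all genes, S434A against WT cells gave 4525 rises with the offset, against 4186, and 2478 falls with only those groups, against 4232. Rises with H89 in WT cells numbered 6813 with a weight per group and 5821 with the offset, against 5598. In S434A cells they numbered 3238 with the offset and 1171 with only those groups, against 4224. Negative differences numbered 3644 with the offset, against 3466. Leaving out 1 library at a time gave 9 to 16 rises (16 without S434A replicate 3) and 29 to 33 falls in S434A against WT cells, 7 to 8 rises (7 without WT with H89 replicate 1 or 2) and 28 to 31 falls with H89 in WT cells, 6 to 23 rises (23 without S434A replicate 3, and 6 to 8 without S434A replicate 2 or any S434A library with H89) and 21 to 30 falls with H89 in S434A cells, and 22 to 32 positive and 5 to 13 negative differences of effects (5 without S434A with H89 replicate 2 or 3, or WT with H89 replicate 1 or 2).

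The replicate block gave 10 rises and 32 falls, 12 and 29, and 17 and 24 in these 3 comparisons, none with H89 between genotypes, and 29 positive and 9 negative differences. Deviations of same-numbered libraries correlated at -0.0522 to 0.0866 for S434A against WT, -0.0166 to 0.0523 for H89 in WT, 0.0481 to 0.309 for H89 in S434A and -0.153 to 0.0727 with H89. With 3 libraries per group these values cannot decide whether the replicate numbers pair the libraries, and the sources used here do not say.

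Of the values named per gene, 2650 kept direction and side of the threshold, 128 lost the call, 61 gained it and 89 changed sign. The offset, alone and with the block, turned these signs: EEF2 -0.38 and -0.38, EIF1 0.27 and 0.26, EIF2B1 0.03 and 0.03 and EEF1AKMT1 0.09 and 0.09 in S434A against WT cells; EIF1 0.03 and 0.03, EIF4EBP1 0.28 and 0.28, EEF1A2 -0.39 and -0.39 and EEF1AKMT1 0.17 and 0.17 for H89 in WT cells. For H89 in S434A cells they turned EEF1A1 (-0.01 and -0.01), EIF2S1 (-0.92 and -0.91), EIF4E (-0.41 and -0.41), EIF4G1 (0.13 and 0.14), EIF4EBP2 (-0.46 and -0.42) and EEF1AKMT2 (-0.29 and -0.31). Between genotypes with H89 they turned EEF2 (0.01 and 0.01) and EIF4EBP1 (-0.01 and -0.01), and in the difference of effects EEF2 (0.39 and 0.39), EIF1 (-0.42 and -0.41) and EIF5A2 (-0.54 and -0.61). The offset without replicate 1 of S434A cells turned EEF2 (-0.34), EIF1 (0.12) and EEF1AKMT1 (0.11) in S434A against WT cells, EIF2S1 (-0.70), EIF4E (-0.51), EIF4G1 (0.17), EIF4EBP2 (-0.11) and EEF1AKMT2 (-0.11) for H89 in S434A cells, and EEF2 (0.35), EIF1 (-0.27) and EIF5A2 (-0.28) in the difference. Other settings turned further signs. EEF2 in S434A against WT cells was -0.03 with RLE factors, -0.03 in DESeq2 and -0.01 without a filter, and its difference of effects was 0.00 in each of these 3. EIF4EBP1 between genotypes with H89 was -0.01 with RLE factors and in DESeq2. With only the groups compared, EIF1 was 0.09 and EIF5A 0.04 in S434A against WT cells, and the difference for EIF1 was -0.01 with upper-quartile factors and -0.00 with at least 1 CPM in 3 libraries. EEFSEC with H89 in WT cells was -0.03 with RLE factors, in DESeq2 and without a filter and -0.02 with only those groups, and EIF4G2 in S434A against WT cells was -0.02 in limma-voom without and with weights. Without 1 library, EEF1A2 ran from -0.03 (without WT with H89 replicate 3) to 0.21 and EEFSEC from -0.06 (without WT with H89 replicate 1 or 2) to 0.15 with H89 in WT cells, and EIF4G2 from -0.17 (without S434A replicate 3) to 0.51 in S434A against WT cells. Likewise, the changes ran from -0.04 to 0.11 for EEF2 and from -0.13 (without S434A replicate 3) to 0.72 for EIF3A in S434A against WT cells, and with H89 in S434A cells from -0.05 to 0.39 for EIF2S1 and from -0.26 to 0.09 for EIF4G1. With H89 between genotypes they ran from -0.01 to 0.07 for EEF1A1 (-0.00 without S434A with H89 replicate 2), -0.08 to 0.09 for EIF3A, -0.20 to 0.01 for EIF4E and -0.03 to 0.02 for EIF4EBP1, and in the difference of effects from -0.12 to 0.02 for EEF2, -0.06 to 0.08 for EIF1 and -0.74 to 0.11 for EIF3A.

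Dropped read pairs in shared exons limit EEF1G and the other overlapping genes at any depth, and low members such as EEF1A2, EIF2S3B and EEF1AKMT2 have few counts. The spread of the S434A libraries without H89 limits every comparison that holds them and, being shared, enters the standard errors of the others.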
